A study of Mus musculus with 9 samples.

Results

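Slow muscle fibres build their contractile apparatus from a set of isoforms that fast fibres use little, and 10 of these genes were followed in the plantaris muscle of mice breathing 8% oxygen. The 10 genes were Myh7, Tnni1, Tnnt1, Tnnc1, Myl2, Myl3, Tpm3, Atp2a2, Casq2 and Myoz2. They were taken from the deposited expression table by gene symbol, using the row with the highest mean where a symbol was repeated, and all 10 were found among its 13722 genes. The libraries came from 3-month-old male C57BL/6J mice (strain label C57BL/6) in 3 groups of 3: control mice with 0 h of exposure, mice after 2 h in 8% oxygen and mice after 6 h in 8% oxygen. Every mouse, controls included, was killed under a mask holding 8% oxygen, and the muscle was taken from the fresh limb. The single control group was taken at 0 h, so effects of exposure and of clock time or handling over those hours cannot be told apart. Whether each library stands for its own mouse is left unsaid by the labels, and the p-values below therefore speak only of how much these 9 libraries vary.

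Slow, or type I, fibres contract slowly, rely on oxidative metabolism and resist fatigue. Their myosin, troponins, tropomyosin and calcium pump are encoded by genes other than those of fast fibres, and many of these isoforms are also used by heart muscle. In the mouse, slow fibres are rich in the soleus and scarce in the neighbouring plantaris, a fast ankle extensor. The amount of slow fibre transcript in a dissected plantaris therefore depends on the fibres that the sample holds as well as on transcription in them. In whole-muscle RNA, a different number of slow fibres and a different amount of transcript per slow fibre cannot be told apart.

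The values are RPKM as deposited by the authors, that is, reads scaled by gene length and library total. Recovered read totals ran from 72706716 in 6 h replicate 3, the shallowest library, to 137097898 in 2 h replicate 3, and the lowest read number of any of the 10 genes in any library was 518. All libraries were dominated by fast fibre transcripts: the 13 fast fibre markers summed to between 108527 and 114610 RPKM in control, 102086 and 112940 RPKM at 2 h and 97180 and 110980 RPKM at 6 h. The 10 slow fibre genes together held between 692 and 716 RPKM in control and between 510 and 626 RPKM at 2 h. At 6 h they held 1035, 1270 and 5871 RPKM in replicates 1, 2 and 3. The library labelled 6 h replicate 3 thus stood apart for the slow fibre genes, and the 6 h differences and counts of the slow fibre genes below are also given without it.

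The sequences around the transcription start show the regulatory context of the genes whose levels separated the libraries most (Myh7, Tnni1, Tnnt1 and Tnnc1) and of the genes that behaved differently from them (Casq2 and Myoz2). They run from 250 bases before to 50 bases after the annotated start, 5′ to 3′ on the gene's strand, and are RefSeq sequences of the build GRCm38.p6. Capitals mark matches, on either strand, to the MCAT element CATTCC (bound by TEAD factors), the TATA box TATAAA, the CArG box and the MEF2 site.
Myh7 (chr14:54994577-54994876, minus strand): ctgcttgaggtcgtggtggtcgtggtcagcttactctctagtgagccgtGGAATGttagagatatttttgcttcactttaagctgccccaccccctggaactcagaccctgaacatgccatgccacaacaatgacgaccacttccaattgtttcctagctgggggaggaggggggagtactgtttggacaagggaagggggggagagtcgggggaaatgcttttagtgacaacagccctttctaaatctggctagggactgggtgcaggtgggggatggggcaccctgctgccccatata
Tnnc1 (chr14:31208062-31208361, plus strand): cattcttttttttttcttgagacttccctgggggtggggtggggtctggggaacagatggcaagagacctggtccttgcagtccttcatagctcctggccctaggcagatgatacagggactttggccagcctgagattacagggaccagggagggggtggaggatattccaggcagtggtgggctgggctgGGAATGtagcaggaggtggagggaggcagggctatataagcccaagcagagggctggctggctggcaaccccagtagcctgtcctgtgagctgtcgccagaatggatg
Tnni1 (chr1:135799171-135799470, plus strand): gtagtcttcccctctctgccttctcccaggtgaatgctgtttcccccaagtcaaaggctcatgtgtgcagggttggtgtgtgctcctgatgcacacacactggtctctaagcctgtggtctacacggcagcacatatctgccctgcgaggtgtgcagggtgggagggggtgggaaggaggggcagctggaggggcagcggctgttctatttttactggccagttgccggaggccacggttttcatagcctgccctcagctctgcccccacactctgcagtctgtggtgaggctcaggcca
Tnnt1 (chr7:4515926-4516225, minus strand): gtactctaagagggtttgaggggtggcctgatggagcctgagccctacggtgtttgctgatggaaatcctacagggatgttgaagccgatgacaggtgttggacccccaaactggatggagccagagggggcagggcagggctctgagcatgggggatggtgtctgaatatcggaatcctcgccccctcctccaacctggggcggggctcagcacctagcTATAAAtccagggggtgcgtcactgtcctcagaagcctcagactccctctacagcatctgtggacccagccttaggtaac
Casq2 (chr3:102086165-102086464, plus strand): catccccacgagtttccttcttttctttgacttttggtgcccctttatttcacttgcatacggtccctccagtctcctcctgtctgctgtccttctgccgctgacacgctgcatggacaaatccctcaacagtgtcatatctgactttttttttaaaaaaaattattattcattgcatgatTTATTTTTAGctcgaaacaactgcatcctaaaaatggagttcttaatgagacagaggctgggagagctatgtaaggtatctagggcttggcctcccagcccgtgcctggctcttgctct
Myoz2 (chr3:123034938-123035237, minus strand): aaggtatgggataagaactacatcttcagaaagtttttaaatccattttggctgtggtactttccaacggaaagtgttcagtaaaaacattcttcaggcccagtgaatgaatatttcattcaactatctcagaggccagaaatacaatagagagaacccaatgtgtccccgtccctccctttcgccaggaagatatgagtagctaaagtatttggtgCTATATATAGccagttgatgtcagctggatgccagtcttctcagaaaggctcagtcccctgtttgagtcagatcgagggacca
The Myh7 and Tnnc1 windows each hold 1 MCAT match, read here as its reverse complement, at positions -201 and -58 from the start. The Tnnt1 window holds a TATA box at position -30, and the Tnni1 window holds none of the 4 motifs. Casq2 and Myoz2 each hold a MEF2 site, at positions -69 and -33.

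RefSeq windows were matched for 9 of the 10 genes, all but Atp2a2. For Myh7, Tnni1, Myl2 and Tpm3, which have 2 annotated starts each, the windows of the first listed start were counted. An MCAT match stood in 3 of the 9 windows (Myh7, Tnnc1 and Myl3), against 14.7% of all 32851 windows of the same length. The window of the second Myh7 start holds no MCAT match, so with that start the count is 2 of the 9. A MEF2 site stood in 2 of the 9 windows, against 3.19% of all windows, and a CArG box in 1 of the 9, Myl3, against 1.63%. A TATA box stood in 1 of the 9 windows, Tnnt1, against 13.6%, and the second Myl2 start, not counted, has another. The E-box CANNTG, the site class of myogenic bHLH factors, stood in 9 of the 9 windows and in 72.3% of all windows. The SOX site AACAAT, the site class of the slow fibre repressor Sox6, stood in 2 of the 9 windows (Myh7 and Myl3) and in 10.7% of all windows. E-box and SOX matches are left in lower case in the printed sequences. A match describes letters in the window and does not show that a factor binds there.

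Myh7, the slow myosin heavy chain and motor of the thick filament, had the widest range of the 10 genes. It is annotated at chr14:55589525-55613471 on the minus strand in the build of the files, mm9. Its level was 1.48, 3.06 and 1.26 RPKM in control replicates 1, 2 and 3, 1.88, 1.17 and 0.935 RPKM at 2 h and 1.90, 29.2 and 170 RPKM at 6 h. Its 6 h replicates 2 and 3 lay above every other library, while 6 h replicate 1 lay within the range of the control libraries. Its highest library held 182 times the level of its lowest. The 6 h mean was 67.0 ± 90.1 RPKM, against 1.93 ± 0.983 RPKM in control (SD, n = 3 each), and the log2 fold change was 3.31 (SE 1.22, limma adjusted p = 0.193). Without 6 h replicate 3 the log2 fold change was 1.87 (adjusted p = 0.363), and without 6 h replicate 1 it was 4.94 and passed the test (adjusted p = 0.0467). At 2 h the mean was 1.33 ± 0.490 RPKM (SD, n = 3), a log2 fold change of -0.37 against control (limma adjusted p = 0.891). In a later annotation, GENCODE M21, the antisense RNA Mhrt and the microRNA Mir208b overlap Myh7, and strand use in the counting is not given, so their reads cannot be told apart.

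Myl2, the slow regulatory light chain that sits on the myosin neck, was the most abundant of the 10 genes in every library by RPKM. Its level was 471, 353 and 370 RPKM in control, 416, 301 and 357 RPKM at 2 h and 702, 528 and 1895 RPKM at 6 h. All 3 of the 6 h libraries lay above all 3 control libraries. Its order within the 6 h group differed from that of Myh7, since replicate 2, not replicate 1, was the lowest. The 6 h mean was 1042 ± 744 RPKM, against 398 ± 63.4 RPKM in control (SD, n = 3 each), a log2 fold change of 1.17 (SE 0.398, limma adjusted p = 0.167), and 0.63 without 6 h replicate 3 (adjusted p = 0.196). At 2 h its groups overlapped with control (358 ± 57.3 RPKM, SD, n = 3; log2 fold change -0.15, limma adjusted p = 0.859).

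Myl3, the slow essential light chain, had 105, 86.1 and 123 RPKM in control, 60.7, 65.0 and 59.8 RPKM at 2 h and 139, 159 and 1114 RPKM at 6 h. The groups did not overlap: every 2 h library lay below every control library, and every 6 h library lay above them. The replicates agreed closely at 2 h, where the mean was 61.8 ± 2.80 RPKM, against 105 ± 18.7 RPKM in control (SD, n = 3 each). The log2 fold change was -0.74 at 2 h against control (SE 0.657, limma adjusted p = 0.556). This SE is that of a spread shared by all 3 groups, and the 6 h group held 6.99-fold between its highest and its next library. At 6 h the log2 fold change against control was 1.48 (limma adjusted p = 0.263), and 0.52 without 6 h replicate 3 (adjusted p = 0.190). Myl2 and Myl3 overlap Ccdc63 and Pth1r on the opposite strand in GENCODE M21.

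**Figure D1:**
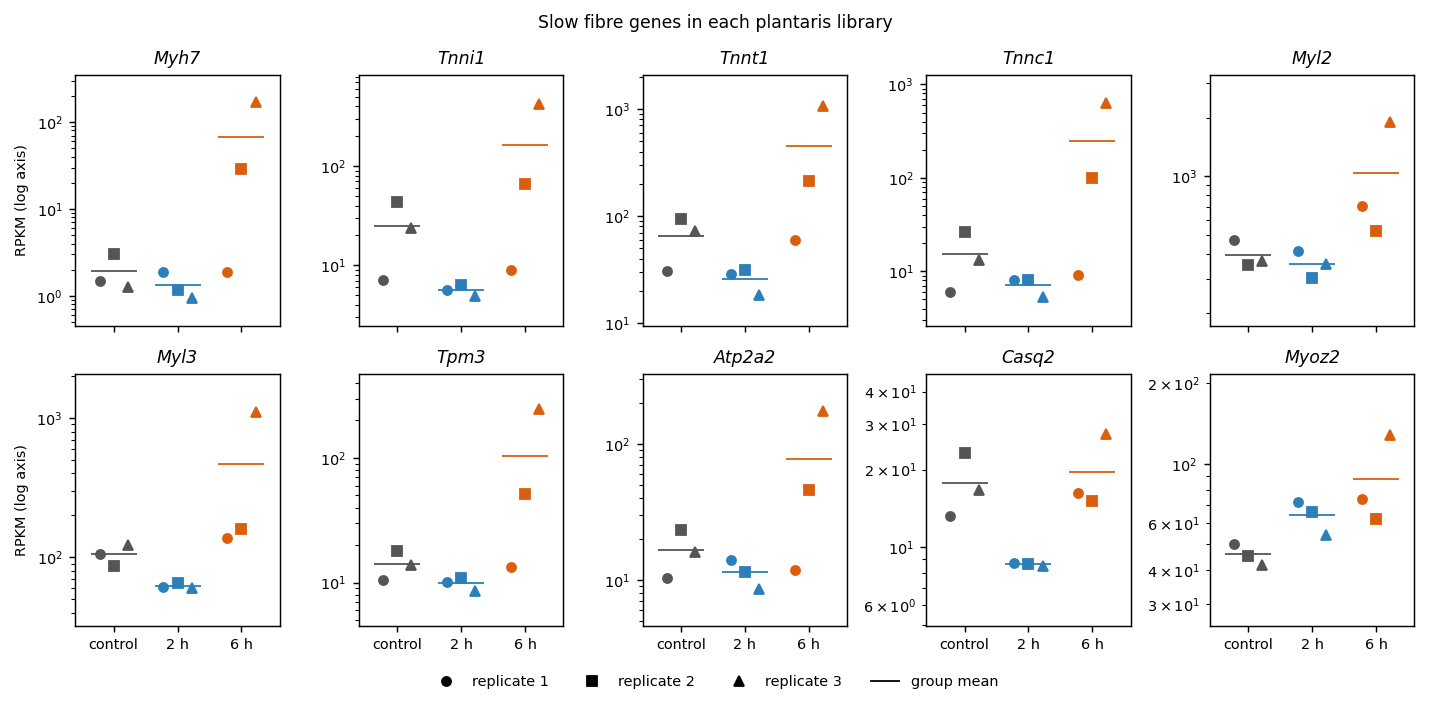
Level of each slow fibre gene in the 9 plantaris libraries, in RPKM on a log axis with its own range in each panel; points are libraries, shaped by replicate number, and lines are group means. All 10 genes had their highest point in 6 h replicate 3, while Myh7 in 6 h replicate 1 stood at 1.90 RPKM, near the control libraries.

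The 3 slow troponin genes encode the thin filament switch that calcium turns on. Tnni1, the inhibitory subunit, had 7.03, 43.6 and 23.7 RPKM in control, 5.63, 6.29 and 4.88 RPKM at 2 h and 8.85, 65.4 and 419 RPKM at 6 h. Tnnt1, the subunit that anchors the complex to tropomyosin, had 30.5, 93.7 and 71.8 RPKM in control, 28.6, 31.1 and 18.5 RPKM at 2 h and 59.6, 213 and 1068 RPKM at 6 h. Tnnc1, the calcium-binding subunit shared by slow fibres and heart, had 6.06, 26.2 and 13.4 RPKM in control, 8.03, 8.05 and 5.29 RPKM at 2 h and 9.04, 100.5 and 627 RPKM at 6 h. The 3 genes ordered the 6 h libraries alike, with replicate 3 highest and replicate 1 lowest, and they ordered the control libraries alike, with replicate 2 highest and replicate 1 lowest. The 2 h libraries were low and close together for all 3.

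At 2 h, Tnni1 averaged 5.60 ± 0.704 RPKM, against 24.8 ± 18.3 RPKM in control (SD, n = 3 each), with every 2 h library below every control library. Its log2 fold change was -1.72 (SE 1.17, limma adjusted p = 0.436), and -1.15 without control replicate 2 (adjusted p = 0.713). Tnnt1 averaged 26.1 ± 6.72 RPKM at 2 h, against 65.3 ± 32.1 RPKM in control (log2 fold change -1.20, limma adjusted p = 0.472), and its groups overlapped through control replicate 1. Tnnc1 averaged 7.12 ± 1.58 RPKM at 2 h, against 15.2 ± 10.2 RPKM in control (log2 fold change -0.84, limma adjusted p = 0.737), and -0.35 without control replicate 2. None of these differences passed the test, whose spread is shared with the 6 h libraries. With only the control and 2 h libraries in the fit, limma gave unadjusted p-values of 0.0172 for Tnni1, 0.0193 for Tnnt1 and 0.108 for Tnnc1. The limma adjusted p-values were then 0.157, 0.1625 and 0.333.

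At 6 h, the log2 fold change against control was 1.67 for Tnni1 (limma adjusted p = 0.473), 2.01 for Tnnt1 (0.257) and 2.65 for Tnnc1 (0.283). Without 6 h replicate 3 these values were 0.31, 0.93 and 1.21, with limma adjusted p-values of 0.895, 0.486 and 0.565. Against 2 h, where every 6 h library was higher than every 2 h library for all 3 troponins, they were 3.39, 3.21 and 3.49, with adjusted p-values of 0.209, 0.144 and 0.216. Leaving out 6 h replicate 3 brought these to 2.03, 2.13 and 2.05. None of these differences passed the test across all genes. The table holds a second Tnnc1 row that lies inside the first (mm9 chr14:31983021-32024915, plus strand), with 5.24, 62.2 and 399 RPKM at 6 h, and the overlapping rows may share reads with each other and with Nisch on the opposite strand.

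Tpm3, which gives slow fibres their own tropomyosin strand along the thin filament and is also used by non-muscle cells, had 10.5, 17.8 and 13.8 RPKM in control, 10.2, 10.8 and 8.54 RPKM at 2 h and 13.3, 51.2 and 248 RPKM at 6 h. It followed the troponins in the 6 h group, and 6 h replicate 1 again lay among the control libraries. The 6 h mean was 104 ± 126 RPKM, against 14.0 ± 3.63 RPKM in control (SD, n = 3 each), with a log2 fold change of 1.98 (SE 0.820, limma adjusted p = 0.233) and of 0.91 without 6 h replicate 3 (adjusted p = 0.402). At 2 h it averaged 9.83 ± 1.17 RPKM (SD, n = 3; log2 fold change -0.47 against control, limma adjusted p = 0.787).

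Atp2a2 and Casq2 serve calcium handling in the sarcoplasmic reticulum. Atp2a2, the slow and cardiac calcium pump SERCA2, had 10.4, 23.4 and 16.0 RPKM in control, 14.1, 11.5 and 8.59 RPKM at 2 h and 11.7, 45.9 and 174 RPKM at 6 h. Its 6 h and 2 h libraries overlapped through 6 h replicate 1, which was below 2 h replicate 1. Its log2 fold change was 1.51 at 6 h against control (SE 0.783, limma adjusted p = 0.328), 0.56 without 6 h replicate 3, and -0.48 at 2 h against control (adjusted p = 0.769).

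Casq2, the calsequestrin that stores calcium in the reticulum of slow and cardiac muscle, had 13.2, 23.2 and 16.6 RPKM in control, 8.73, 8.60 and 8.47 RPKM at 2 h and 16.2, 15.1 and 27.5 RPKM at 6 h. Its 2 h libraries were nearly equal and lay below all 6 others. The 2 h mean was 8.60 ± 0.131 RPKM, against 17.7 ± 5.11 RPKM in control (SD, n = 3 each). The log2 fold change was -0.96 (SE 0.245), with an unadjusted p of 0.00352 and an adjusted p of 0.0847 in limma, which did not pass the threshold of 0.05. DESeq2 on recovered reads called it lower at 2 h (log2 fold change -1.04, adjusted p = 0.00405), and edgeR did not (-1.06, adjusted p = 0.0779). At 6 h Casq2 averaged 19.6 ± 6.85 RPKM (SD, n = 3), with a log2 fold change of 0.13 against control (limma adjusted p = 0.811) that turned to -0.13 without 6 h replicate 3 and to -0.05 without control replicate 1. Against 2 h it was 1.09 (limma unadjusted p = 0.00159, adjusted p = 0.113), and 0.83 without 6 h replicate 3 (adjusted p = 0.169).

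Myoz2, the Z-disc protein calsarcin-1, which binds calcineurin and alpha-actinin and is the slow and cardiac member of its family, had 50.3, 45.3 and 42.0 RPKM in control, 72.2, 66.1 and 54.3 RPKM at 2 h and 73.7, 62.2 and 128 RPKM at 6 h. It was the only gene of the 10 with a higher mean at 2 h than in control, and no hypoxic library overlapped with a control library. The 2 h mean was 64.2 ± 9.13 RPKM and the 6 h mean 87.9 ± 35.0 RPKM, against 45.9 ± 4.17 RPKM in control (SD, n = 3 each). The log2 fold change was 0.47 at 2 h against control (SE 0.239, limma adjusted p = 0.302). At 6 h against control it was 0.86, with an unadjusted p of 0.00554 and an adjusted p of 0.107 in limma. The 6 h value was 0.56 without 6 h replicate 3 (adjusted p = 0.158) and 1.08 without 6 h replicate 2, where it passed the test (adjusted p = 0.0445).

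Counted over the list, none of the 10 genes was called at 2 h against control by limma, where 0.774% of the 13309 tested genes were called. 1 of the 10, Casq2, had an unadjusted p under 0.05 with a lower level, against 8.92% of tested genes. These p-values use a spread that the 6 h libraries share. With only the control and 2 h libraries in the fit, limma gave 6 of the 10 an unadjusted p under 0.05, in either direction. That compares with 2811 of the 13309 tested genes, and none of the 10 was called. The groups did not overlap for 3 genes with lower levels at 2 h (Tnni1, Myl3 and Casq2) and for 1 with a higher level (Myoz2), against 12.6% and 14.9% of tested genes. The median log2 fold change of the 10 genes was -0.61, and that of all tested genes -0.000285. Without control replicate 2 the median of the 10 was -0.32. With edgeR none of the 10 was called, against 1.18% of genes, and 1 had an unadjusted p under 0.05 with a lower level, against 11.7%. With DESeq2 1 was called lower, against 5.17% of genes with an adjusted p.

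At 6 h against control, none of the 10 genes was called by limma, where 1.6% of tested genes were called, although all 10 means were higher at 6 h. 5 of the 10 had an unadjusted p under 0.05 with a higher level (Myh7, Tnnt1, Myl2, Tpm3 and Myoz2), against 12% of tested genes. The groups did not overlap for 3 genes, all higher at 6 h (Myl2, Myl3 and Myoz2), against 16.9% of tested genes. With edgeR none was called, against 2.37% of genes, and 9 had an unadjusted p under 0.05 with a higher level, against 8.9%. With DESeq2 5 were called higher (Myh7, Tnnt1, Tnnc1, Tpm3 and Myoz2), against 4.13% of genes, and Myl3 received no p-value from it in any of the 3 comparisons. The median log2 fold change of the 10 genes was 1.59, and that of all tested genes 0.050. That median was 0.59 without 6 h replicate 3 and 2.73 without 6 h replicate 1. Without 6 h replicate 3, limma and edgeR called none of the 10 and DESeq2 called 1, Myoz2, against 5.81% of genes in either direction. Unadjusted p-values under 0.05 with a higher level were then left in 3 genes by limma (Myl2, Myl3 and Myoz2), against 10.6% of genes, and in 5 by edgeR, against 7.4%. The groups of the same 3 genes did not overlap, against 23.4% of genes.

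At 6 h against 2 h, none of the 10 genes was called by limma, where 0.143% of tested genes were called. 9 of the 10, all but Myoz2, had an unadjusted p under 0.05 with a higher level at 6 h, against 9.88% of tested genes. The groups did not overlap for 8 genes, all higher at 6 h, against 13.7% of tested genes, and the exceptions were Atp2a2 and Myoz2. With edgeR none was called, against 0.601% of genes, and 9 had an unadjusted p under 0.05 with a higher level, against 9.51%. With DESeq2 7 were called higher, all but Myl2, Myl3 and Myoz2, against 3.48% of genes. The median log2 fold change of the 10 genes was 2.34, and that of all tested genes 0.047. It was 1.32 without 6 h replicate 3. Without that library limma and edgeR called none of the 10, and DESeq2 called 6, all higher (Myh7, Tnnt1, Myl2, Myl3, Tpm3 and Casq2), against 5.93% of genes in either direction. Unadjusted p-values under 0.05 with a higher level were left in 7 genes by limma, against 11.2% of genes, and in 9 by edgeR, against 10.2%. The groups of 8 genes, again all but Atp2a2 and Myoz2, did not overlap, against 21.8% of genes. In the authors' deposited table, whose test is not stated, the lowest adjusted p-value of the 10 genes was 0.121 at 2 h against control (Myl3) and 0.225 at 6 h against control (Myoz2).

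**Figure D2:**
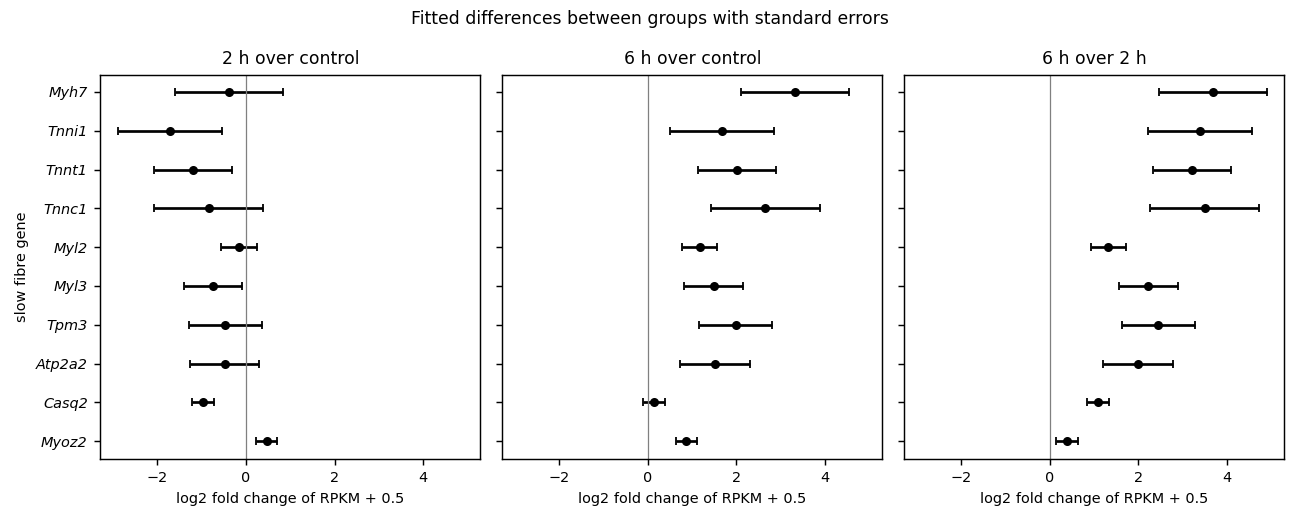
Fitted log2 fold changes of the 10 slow fibre genes on the scale of log2(RPKM + 0.5) for 2 h over control, 6 h over control and 6 h over 2 h; points are estimates and bars 1 standard error. The standard error ran from 0.239 for Myoz2 to 1.24 for Tnnc1, so large differences such as 3.31 for Myh7 at 6 h over control did not pass the test.

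The wide standard errors came from differences between libraries of the same group. The SD within groups, pooled over the 3 groups on the log2 scale, had a median of 1.20 over the 10 genes and of 0.185 over all tested genes. 6 of the 10 genes (Myh7, Tnni1, Tnnt1, Tnnc1, Tpm3 and Atp2a2) varied more within groups than 99% of tested genes. Myl3 lay just below that mark, and the share was 93.7% for Myl2, 81.1% for Casq2 and 80.2% for Myoz2. All 10 genes had their highest level in 6 h replicate 3, a library in which 9.95% of tested genes had theirs. 7 of the 10 had their next highest level in 6 h replicate 2, and 8 had their lowest in 2 h replicate 3. The shares of all tested genes with these placings were not counted.

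**Figure D3:**
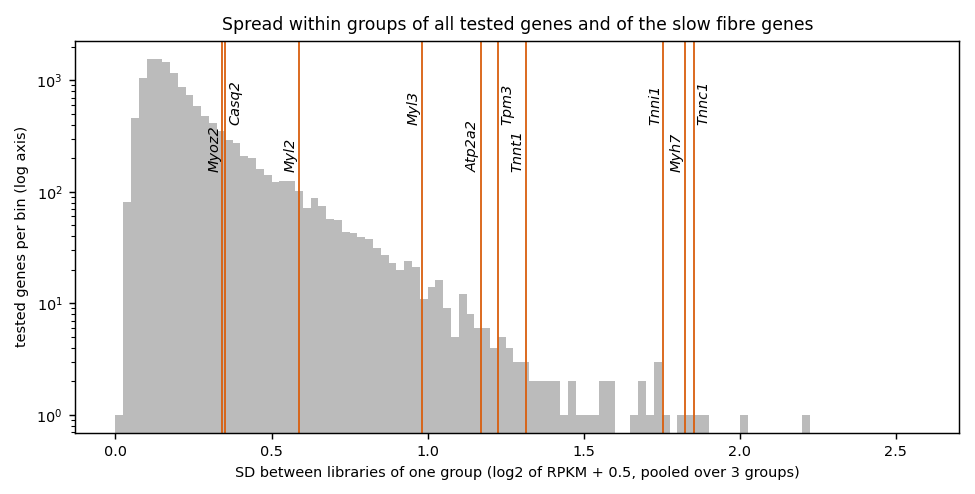
Histogram of the SD between libraries of a group for all 13309 tested genes (log2 of RPKM + 0.5, pooled over the 3 groups, gene number on a log axis), with the 10 slow fibre genes as vertical lines. Tnnc1, Myh7 and Tnni1 lay in the far right tail, and Casq2 and Myoz2, at 0.353 and 0.343, stood closest to the median of 0.185.

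Within the 6 h group the step between libraries was of similar proportion for most of the genes. The excess in RPKM of replicate 2 over replicate 1 was 16.3% of that of replicate 3 over replicate 1 for Myh7, 13.8% for Tnni1, 15.2% for Tnnt1, 14.8% for Tnnc1, 16.1% for Tpm3 and 21.0% for Atp2a2. These 6 genes thus placed replicate 2 at nearly the same fraction of the way to replicate 3. Myl3 stood at 2.14%, and in Myl2, Casq2 and Myoz2 replicate 2 lay below replicate 1. Replicate 3 held 89.3 times the level of replicate 1 for Myh7 and 69.4 times for Tnnc1, against 2.70 times for Myl2, 1.73 times for Myoz2 and 1.70 times for Casq2.

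The control group had a step of its own, smaller and in much the same slow fibre genes. Control replicate 2 held 6.20 times the level of control replicate 1 for Tnni1, 4.33 times for Tnnc1, 3.07 times for Tnnt1, 2.25 times for Atp2a2, 2.07 times for Myh7 and 1.69 times for Tpm3. Casq2, whose level in 6 h replicate 2 lay below that in 6 h replicate 1, stood at 1.76 times in the control group. Myl3 and Myl2 stood at 0.818 and 0.751 times, and Myoz2 also lay below control replicate 1. Of the 4 genes of developing or regenerating fibres, 3 differed in the same direction: embryonic myosin Myh3 was 14.1 times higher in control replicate 2 than in control replicate 1, the muscle regulatory factor Myog 12.5 times and the adhesion molecule Ncam1 4.63 times. The fourth, the perinatal myosin Myh8, stood at 0.907 times. Myl4, the embryonic and atrial light chain, was 12.6 times higher and Tnnt2, the cardiac and embryonic troponin T, 4.40 times higher. In 6 h replicate 3 over 6 h replicate 1, Myh3 stood at 2.07 times, Myl4 at 0.862 times, Myog at 1.25 times, Ncam1 at 1.11 times, Tnnt2 at 1.08 times and Myh8 at 0.917 times. In 6 h replicate 2 over 6 h replicate 1 they stood higher, at 3.34, 1.48, 2.52, 2.79, 2.19 and 1.25 times in the same order, beside 3.57 times for Tnnt1, 7.39 times for Tnni1 and 11.1 times for Tnnc1. Control replicate 3 over control replicate 1 stood at 6.82 times for Myh3, 6.66 for Myl4, 7.54 for Myog, 2.52 for Ncam1 and 2.86 for Tnnt2. The slow troponins Tnni1, Tnnt1 and Tnnc1 stood at 3.37, 2.35 and 2.21 times there, and Myh8 and Myh7 at 0.864 and 0.847 times. Developmental genes other than Myh8 thus differed alongside the slow troponins in control replicates 2 and 3 and in 6 h replicate 2. They differed less in 6 h replicate 3, where the 10 slow fibre genes were highest.

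**Figure D4:**
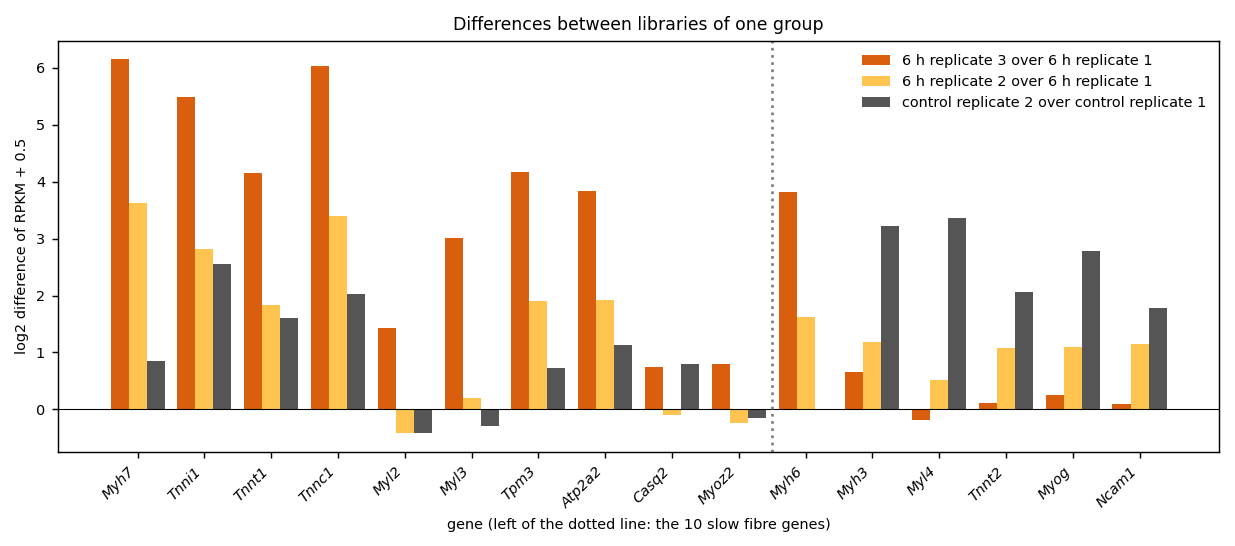
Differences between libraries of the same group, as log2 of RPKM + 0.5, for the 10 slow fibre genes (left of the dotted line) and 6 other muscle genes (right); bars are 6 h replicate 3 over 6 h replicate 1, 6 h replicate 2 over 6 h replicate 1 and control replicate 2 over control replicate 1. Myh7 differed by 6.15 between 6 h replicates 3 and 1, while Myh3, Myl4 and Myog differed by 3.21, 3.36 and 2.78 between control replicates 2 and 1.

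The ratio of a slow gene to its fast counterpart within a library depends on the library's total only through the 0.5 RPKM added. The addition weighs most on Myh7, whose lowest level was 0.935 RPKM. For Myh7 over Myh4, the fastest myosin heavy chain, the log2 ratio was -11.27, -10.34 and -11.34 in control, -10.75, -11.69 and -11.62 at 2 h and -10.72, -7.12 and -4.53 at 6 h. For Tnni1 over Tnni2, the fast inhibitory troponin, it was -10.64, -8.04 and -8.88 in control, -11.02, -10.81 and -11.34 at 2 h and -10.39, -7.34 and -4.76 at 6 h. In every one of the 10 slow and fast pairs the ratio was highest in 6 h replicate 3, and in 7 it was next highest in 6 h replicate 2. The 10 paired fast genes had narrower ranges: their highest library held between 1.17 times (Tnnc2) and 2.06 times (Myl1) the level of their lowest. The unpaired Myh1 and Myh2 ranged more widely. Myh1 lay between 695 RPKM, in 6 h replicate 3, and 1806 RPKM, and Myh2 between 304 RPKM and 756 RPKM, its level in 6 h replicate 3. None of the 12 fast counterparts was called by limma in any of the 3 comparisons. Of these 12, 5 had an unadjusted p under 0.05 at 2 h against control, against 20.1% of tested genes, 1 at 6 h against control, against 19.1%, and 3 at 6 h against 2 h, against 16.4%.

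**Figure D5:**
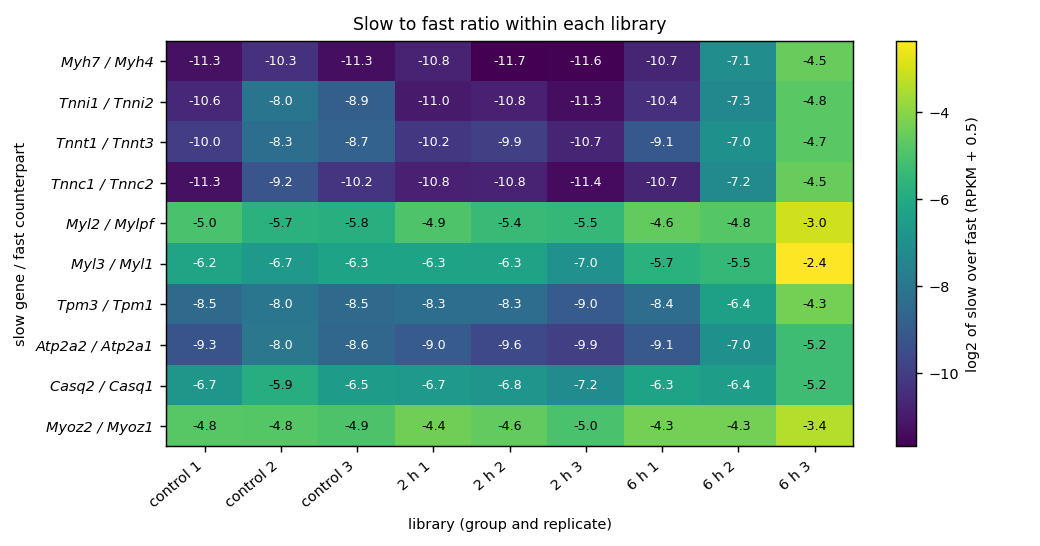
Log2 ratio of each slow gene to its fast counterpart (RPKM + 0.5) in the 9 libraries, with brighter cells for higher ratios. The 6 h replicate 3 column is the brightest in every row, for example -2.35 for Myl3 over Myl1, while 6 h replicate 1 lies within the control range for Myh7 over Myh4 (-10.72) and above it for Myl3 over Myl1 (-5.71).

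Among the 4 adult myosin heavy chains, the share of summed RPKM that belonged to Myh7 was 0.0200%, 0.0473% and 0.0193% in control, 0.0315%, 0.0159% and 0.0149% at 2 h and 0.0330%, 0.451% and 3.06% at 6 h. Even in 6 h replicate 3, slow myosin was thus a small part of the myosin transcript. Myh4, the IIb chain, kept between 63.6% and 74.8% in all 9 libraries. Myh2, the IIa chain of fast oxidative fibres, held 13.6% in 6 h replicate 3 and between 4.83% and 9.61% in the other 8 libraries, and Myh1, the IIx chain, held 12.5% in 6 h replicate 3. Recorded levels of Myh7 in that library may include reads of its near-identical neighbour Myh6, the cardiac alpha chain, and those of Myh6 may include reads of Myh7. In the 6 h libraries Myh6 stood at 1.04, 4.24 and 21.3 RPKM, beside 1.90, 29.2 and 170 RPKM for Myh7. How reads were divided between them is not given.

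Across the 9 libraries the 10 genes moved together to different degrees, given here as a description over libraries that share groups. Pearson r of log2(RPKM + 0.5) over the 45 pairs ran from 0.233 (Casq2 with Myoz2) to 0.995 (Tnnc1 with Atp2a2), with a median of 0.858. Tpm3 was the gene closest to the mean of the other 9, at r = 0.994, and Myoz2 the farthest, at r = 0.655. Over the 7 libraries other than 6 h replicates 2 and 3, Tpm3 stayed at 0.985, Tnnt1 at 0.975 and Casq2 reached 0.933. Myl2 dropped to 0.125 and Myoz2 to -0.445 in those 7 libraries. The likeness of Myl2 and Myoz2 to the other genes was thus lost without these 2 libraries, which were left out together. In 6 h replicate 2 both genes lay below their level in 6 h replicate 1, at 528 against 702 RPKM for Myl2 and 62.2 against 73.7 RPKM for Myoz2. The part of each library was not tested.

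Outside the list, the 10 genes most like the mean of the 10 were taken by rule among 5525 with a mean of at least 5 RPKM. For a listed gene the r is with the mean of the other 9, so the measures differ. All these outside genes had a lower r than Tpm3 and a higher r than Myl2 (0.844), Casq2 (0.753) and Myoz2 (0.655). The highest was Kremen1, a Wnt pathway receptor for Dickkopf proteins, at r = 0.949 over 9 libraries, with 7.55, 8.32 and 8.27 RPKM in control, 6.07, 6.16 and 6.10 RPKM at 2 h and 8.07, 8.72 and 15.0 RPKM at 6 h. It was followed by Ppp2ca (0.929), the catalytic subunit of protein phosphatase 2A, Ndufb3 (0.898), a subunit of respiratory complex I, Txn2 (0.894), the mitochondrial thioredoxin, Snx4 (0.889) and AL935177.2 (0.887). Actn2 (0.884), the alpha-actinin of Z-discs, Prdm8 (0.879), Chsy1 (0.876) and Mlycd (0.867), malonyl-CoA decarboxylase, completed the first 10. Prdm8 and Chsy1 had the wide 6 h spread of the slow genes, with 8.73, 34.4 and 32.1 RPKM and 2.91, 9.39 and 16.8 RPKM in 6 h replicates 1, 2 and 3. None of the 10 was called in a comparison with the 6 h group.

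Other genes that slow fibres favour gave 2 calls among 13 tested, 1 at 2 h and 1 at 6 h against control. Of all tested genes, 0.774% and 1.6% were called in these comparisons. Myom3, the M-band protein myomesin 3, fell at 2 h, with 12.4, 14.7 and 11.3 RPKM at 2 h, against 23.5, 21.2 and 24.8 RPKM in control (log2 fold change -0.84, limma adjusted p = 0.0420). Its 6 h libraries, at 26.0, 26.5 and 20.3 RPKM, were level with control. The call was lost under 10 of 21 alternative settings, among them leaving out each of the control or 2 h libraries or 6 h replicates 1 or 3 (adjusted p up to 0.182). Lmod2, leiomodin 2, which nucleates thin filaments, rose at 6 h, with 158, 175 and 166 RPKM at 6 h, against 87.5, 98.1 and 106 RPKM in control (log2 fold change 0.78, limma adjusted p = 0.0438). It was as high at 2 h, at 140, 213 and 160 RPKM (log2 fold change 0.80, limma adjusted p = 0.0527). Its call was lost under 11 of 21 settings, among them leaving out any control or 6 h library or 2 h replicate 3 (adjusted p up to 0.128). The other 11 (Myh7b, Myl6b, Pln, Sln, Car3, Ankrd2, Csrp3, Mb, Fabp3, Tppp3 and Hspb6) were not called in any comparison. Of the 13, only Myh7b and Fabp3 had their highest level in 6 h replicate 3, at 2.29 and 946 RPKM. Tppp3 had its lowest level there, at 16.7 RPKM. The 13 together held 7143, 6333 and 7058 RPKM in 6 h replicates 1, 2 and 3. The excess of the 10 slow fibre genes in 6 h replicate 3 was thus not seen in this sum. The median log2 fold change of the 13 was -0.45 at 2 h and 0.059 at 6 h against control.

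Of 16 tested regulators of the slow and fast programmes, 1 was called, at 6 h against control, where 1.6% of all tested genes were called. Eya1, a transcriptional cofactor in the fast programme, fell at 6 h, with 2.80, 4.29 and 3.27 RPKM at 6 h, against 5.92, 6.19 and 5.96 RPKM in control (log2 fold change -0.74, limma adjusted p = 0.0353). The call was lost under 9 of 21 settings, among them leaving out any control library, 2 h replicates 2 or 3 or 6 h replicates 1 or 3 (adjusted p up to 0.124). Sox6, the repressor of slow genes in fast fibres, differed from control by 0.081 at 2 h and 0.13 at 6 h on the log2 scale (limma adjusted p = 0.789 and 0.678). Tead4, a factor that binds the MCAT element, had 2.07, 1.82 and 1.49 RPKM at 2 h, against 4.44, 4.05 and 4.03 RPKM in control (log2 fold change -1.03, limma adjusted p = 0.0539). Vgll2, a TEAD cofactor, had 32.0, 28.0 and 31.5 RPKM at 6 h, against 53.0, 71.9 and 52.7 RPKM at 2 h (log2 fold change -0.93, limma adjusted p = 0.0508). Hdac5, a class IIa deacetylase that holds MEF2 inactive, had 20.9, 23.1 and 20.6 RPKM at 2 h, against 16.2, 14.3 and 14.0 RPKM in control (log2 fold change 0.53, limma adjusted p = 0.0626). These 3 missed the threshold.

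Because many slow isoforms are shared with the heart, cardiac genes were set beside them. Of the 11 heart muscle genes listed, 7 were measured, and Nppb, Ryr2, Gata4 and Tbx5 were not analysed here. The cardiac-specific Nppa, Tnni3, Mybpc3 and Myl7 stood between 0.491 and 0.721 RPKM in 6 h replicate 3, where Tnnc1 stood at 627 RPKM, and did not exceed 2.11 RPKM in any library. The other 3 stood higher there, with 21.3 RPKM for Myh6, 7.95 RPKM for Tnnt2 and 3.63 RPKM for Myl4. Myh6 held 20.6 times the level of 6 h replicate 1 in 6 h replicate 3. Its recorded levels and p-values may reflect reads of the near-identical Myh7, which stood at 170 RPKM in 6 h replicate 3. Tnnt2 and Myl4 were highest in control replicate 2, at 30.5 and 25.2 RPKM. None of the 7 was called by limma in the 3 comparisons, with 1 at an unadjusted p under 0.05 in each. These were Tnnt2 at 2 h against control, and Myh6 at 6 h against control (limma unadjusted p = 0.0311) and at 6 h against 2 h (0.0259). Of all tested genes, 20.1%, 19.1% and 16.4% had an unadjusted p under 0.05 in the same 3 comparisons. The summed level of the 7 ranged between 15.6 and 59.5 RPKM in control, 13.3 and 15.4 RPKM at 2 h and 16.7 and 35.3 RPKM at 6 h.

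Markers of other cells also differed between libraries of the same group. The 5 matrix and fibroblast genes summed to between 183 and 454 RPKM in control, between 33.5 and 74.2 RPKM at 2 h and to 105, 537 and 79.3 RPKM in 6 h replicates 1, 2 and 3. The 5 macrophage genes measured summed to between 24.5 and 127 RPKM in control, between 30.9 and 32.8 RPKM at 2 h and to 33.5, 181 and 26.9 RPKM at 6 h. The libraries with high slow troponins in the control group, replicates 2 and 3, and 6 h replicate 2 were thus high in both lists. In contrast, 6 h replicate 3, highest for the 10 slow fibre genes, was low in both. The 6 nerve and Schwann cell genes summed to 639 RPKM in 6 h replicate 1 and to between 53.0 and 85.1 RPKM in the other 8 libraries. The 4 genes of developing or regenerating fibres summed to between 37.9 and 55.4 RPKM in control, 18.9 and 32.2 RPKM at 2 h and 24.7 and 36.5 RPKM at 6 h. The 5 smooth muscle genes summed to between 78.2 and 104 RPKM in control, 110 and 119 RPKM at 2 h and 105 and 118 RPKM at 6 h. The 5 endothelial genes summed to between 58.2 and 69.7 RPKM in control, 44.5 and 52.9 RPKM at 2 h and 49.8 and 70.7 RPKM at 6 h, and 1 of them, Kdr, fell at 2 h against control (log2 fold change -1.12, limma adjusted p = 0.0486). The Kdr call was lost under 11 of 21 settings, among them leaving out any control or 2 h library or 6 h replicates 1 or 3 (adjusted p up to 0.194). At 2 h against control, 0.774% of all tested genes were called. The part of these other cells in the levels of the slow fibre genes was not tested.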

How the data were processed

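RNA sequencing of plantaris muscle gave 9 libraries, grouped by their titles. The authors deposited RPKM per gene and library, with the largest read count per gene and p-values whose test is not stated; the unit was recognised from the values. Per the submitters' processing notes, the tools were TopHat2 and Bowtie2, with FastQC, SAMtools and bedtools, and the build was mm9. How gene reads were counted, and whether by strand, is not given in the sources used here.

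Each comparison was fitted on log2(RPKM + 0.5) by limma 3.58.1 under R 4.3.3, using group means over all 9 libraries and a trend of variance with level. The 13309 genes whose mean RPKM reached 0.5 were tested, with Benjamini-Hochberg adjustment and a threshold of 0.05. A fold change on this scale understates the change of low genes. RPKM values move in steps that returned whole reads, within 0.1 read, for 100% of 40183 values below 500 reads. As alternatives, those reads entered DESeq2 1.42.0 and the quasi-likelihood test of edgeR 4.0.16. The fit was tested on simulated data. Chi-square per gene over the 36 library pairs was at least 67.9, so no pair was taken for a duplicate. Read totals describe counting depth only.

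Named were the 10 slow fibre genes, their fast counterparts, the 10 most similar genes, and from each other list at most 4 genes with the smallest p and every called gene. Genes not called are otherwise named only to complete a count; Sox6 and the non-member genes compared between libraries of a group were chosen after their values were seen. The members and lists were chosen with earlier results of these data known. Alternatives changed the pseudocount, filter, scaling, variance model, library weights, libraries in the fit, replicate block, tool and each library in turn; those for Myom3, Lmod2, Eya1 and Kdr, and the counts by edgeR and DESeq2 without 6 h replicate 3, were added after their values were seen. Promoters are RefSeq sequences of GRCm38.p6, while gene positions are the deposited mm9 ones; none was converted.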

Additional observations from a re-analysis of the deposited data

How the results depend on the processing

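Of 630 values of the 10 slow fibre genes under 21 alternatives, 610 kept their direction and side of the threshold and 18 became called. Casq2 at 6 h against control turned to -0.13 without 6 h replicate 3 and to -0.05 without control replicate 1, with 0.34 the highest value with a library left out. At 2 h against control, 1 slow gene was called with library weights and 1 with DESeq2. At 6 h against control, 2 were called with library weights (Myl2 and Myoz2), 5 with DESeq2 and 0 to 1 with a library left out; at 6 h against 2 h, 7 with DESeq2 and 0 with a library left out. DESeq2 without 6 h replicate 3 called 1 and 6 in these 2 comparisons. Their median log2 fold change with a library left out ran from 0.59 to 2.73 at 6 h against control. Counts over all genes moved more. At 2 h against control (103 called), they were 29 with no mean-variance trend, 3068 with library weights, 157 with edgeR, 1382 with DESeq2 and 0 to 396 with a library left out. At 6 h against control (213), they were 4113 with library weights, 73 with only the groups compared, 1141 with DESeq2 and 10 to 417 with a library left out. At 6 h against 2 h (19), they were 11 with TMM factors, 8 with equal medians, 6 with no trend, 119 with library weights, 3 with only the groups compared, 80 with edgeR, 893 with DESeq2 and 0 to 9 with a library left out. Higher and lower calls were 63 and 40, 133 and 80, and 9 and 10 in the 3 comparisons, 53 and 63, 100 and 166, and 2 and 9 with TMM factors, and 72 and 62, 124 and 135, and 2 and 6 with equal medians. The causes were not tested. Same-numbered samples did not deviate together throughout, with r above 0.1 in 2 of 9 pairs, from -0.33 to 0.49. Those 2 were 6 h with control, at 0.35 for replicates 1 and 0.49 for replicates 2, while replicates 3 stood at -0.33. Pairs with different numbers ran from -0.60 to 0.40. The replicate numbers were not taken as a pairing, and shared handling was not tested. With the replicate block 1, 43 and 2 genes were called and none of the 10. Myom3, Lmod2, Eya1 and Kdr then had limma adjusted p-values of 0.0779, 0.0605, 0.0655 and 0.0836. With 3 libraries a group, the spread between libraries is estimated from few values, and the part of read depth was not tested.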
